A study of Homo sapiens with 28 samples.

Results

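The genes described here are 10 regulators of insulin and insulin-like growth factor (IGF) signalling. They are the receptors IGF1R and INSR, the adaptors IRS1 and IRS2, the phosphoinositide 3-kinase (PI3K) regulatory subunits PIK3R1 and PIK3R3, the phosphatases INPP4B, PHLPP1 and PHLPP2, and the IGF-binding protein IGFBP3. They were chosen with earlier results of these data known. The rows were taken by gene symbol, and 10 of the 61815 genes in the counts table matched. Their mRNA was measured by RNA-seq in 28 libraries of LNCaP, an androgen-responsive human prostate cancer cell line labelled as wild type. Before treatment all cells spent 72 h in charcoal-stripped serum, which holds little steroid hormone. In the 24 h experiment, groups of 3 libraries received 0.1% DMSO (vehicle), 1 µM Senexin B, 0.1 nM R1881 (a synthetic androgen), or Senexin B and R1881 together. In the 72 h experiment, groups of 4 libraries received vehicle, 500 nM SNX631, 1 nM R1881, or SNX631 and R1881 together. Both inhibitors act on the Mediator kinases CDK8 and CDK19. Doses are those of the sample labels, and the study's text names another dose of Senexin B. The experiments differ in time, R1881 dose and inhibitor at once, so these cannot be told apart between them. The study's text speaks of at least 3 biological replicates per treatment in its RNA-seq. No source used here says whether the libraries of a group came from separate cultures. Every test therefore measures only the spread between these libraries.

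R1881 raised 4 of the 10 genes by over 1.5-fold in both experiments: IGF1R, IRS1, IRS2 and INPP4B. PIK3R1 and PHLPP2 rose by less than 1.5-fold. R1881 did not change INSR past the test, and without an inhibitor it lowered PIK3R3 and PHLPP1 by less than 1.5-fold. With SNX631 present it lowered PIK3R3 by 1.71-fold. Without an inhibitor, IGFBP3 was lowered by less than 1.5-fold at 24 h and did not change past the test at 72 h. The CDK8/19 inhibitors lowered INPP4B by over 1.5-fold, and PIK3R3 by less, with and without R1881. Without R1881 both also lowered IGF1R and PHLPP1 by less than 1.5-fold. With R1881, SNX631 also lowered PHLPP1 by less than 1.5-fold, while Senexin B did not change it past the test. The inhibitors raised IGFBP3 by less than 1.5-fold in the absence of R1881 but not in its presence, and replicate 4 of SNX631 lay within the vehicle range. Levels of IGF1R with R1881 overlapped between libraries with and without an inhibitor.

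As background, IGF1R and INSR are receptor tyrosine kinases that phosphorylate the IRS adaptors when IGFs or insulin bind. Phosphorylated IRS proteins recruit PI3K through its regulatory subunits, and the lipids that PI3K makes bring the kinase AKT to the membrane. INPP4B removes a phosphate from the PI3K lipid product PI(3,4)P2, PHLPP1 and PHLPP2 dephosphorylate AKT, and IGFBP3 binds IGFs outside the cell.

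Total counts per library were 9846595 to 33809419, and the second highest was 15248512. The deepest library was replicate 3 of the 24 h vehicle group. KLK3, which encodes prostate-specific antigen and is induced by the androgen receptor, rose from a mean of 1.44 CPM in both vehicle groups to 110.2 CPM with 0.1 nM R1881 and 138 CPM with 1 nM R1881, as the labels require. CPM are TMM-scaled counts relative to library size within each experiment, so levels set beside each other across experiments were scaled separately. Of 8 markers of prostate luminal cancer cells, 6 were above 10 CPM in every library, and the other two, KLK3 and KLK2, were low without R1881. Of 11 markers of leukocytes, endothelium, fibroblasts and basal epithelium, 8 were below 1 CPM in every library. Among the rest, COL1A1 and COL3A1 carried most of the summed level of this list, which was 26.9 to 30.5 CPM in the 24 h vehicle libraries and 16.1 to 18.4 CPM with R1881, and 33.3 to 36.1 CPM and 18.6 to 25.8 CPM at 72 h. With an inhibitor these collagens moved in opposite directions. COL1A1 went from a mean of 23.3 to 11.3 CPM with Senexin B alone and from 30.0 to 19.6 CPM with SNX631 alone, and COL3A1 from 4.46 to 10.5 CPM and from 4.23 to 11.9 CPM. In the presence of R1881 the inhibitors took COL1A1 from 14.6 to 8.11 CPM and from 21.4 to 12.0 CPM, and COL3A1 from 1.32 to 2.29 CPM (FDR 0.012, not passed) and from 1.11 to 2.68 CPM. Without these collagens the sum was 0.428 to 1.99 CPM over all libraries. The part of these shifts in the R1881 and inhibitor results below was not tested.

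The genes lie on 10 different chromosomes, at the following GRCh38 positions of the GENCODE 29 annotation, matched by gene identifier without its version. IGF1R is at chr15:98648539-98964530 on the plus strand and INSR at chr19:7112255-7294034 on the minus strand. IRS1 is at chr2:226731317-226799759 and IRS2 at chr13:109752698-109786568, both on the minus strand. PIK3R1 is at chr5:68215720-68301821 on the plus strand, and PIK3R3 at chr1:46040140-46133036 on the minus strand. INPP4B is at chr4:142023160-142847432 on the minus strand, PHLPP1 at chr18:62715450-62980433 on the plus strand, PHLPP2 at chr16:71637835-71724701 on the minus strand and IGFBP3 at chr7:45912245-45921874 on the minus strand. PIK3R3 overlaps a protein-coding gene on its own strand and had fractional counts in 16 of 28 libraries, so some reads were counted in part and its values are uncertain to that extent. PHLPP2 overlaps MARVELD3 on the other strand. The library kit was directional, but the strand setting of the counting is not given in the sources used here, so reads of overlapping antisense genes cannot be told apart.

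Per kilobase of exon, the vehicle levels at 24 h ranged from 0.165 CPM/kb for INPP4B to 201 CPM/kb for IGFBP3. PIK3R3 (32.9 CPM/kb) was above PIK3R1 (10.3 CPM/kb) among the regulatory subunits. IGF1R (6.72 CPM/kb) was above INSR (2.86 CPM/kb) among the receptors, and IRS1 (2.31 CPM/kb) was above IRS2 (0.335 CPM/kb) among the adaptors. With R1881 for 24 h the level of IGF1R reached 30.1 CPM/kb while that of INSR was 2.83 CPM/kb. At 72 h with R1881, IRS2 (3.00 CPM/kb) and IRS1 (2.76 CPM/kb) were at similar levels per kilobase, from vehicle levels of 0.395 and 1.52 CPM/kb.

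RefSeq promoter windows (GRCh38.p14) from 250 bases before each start to 50 after it were matched by symbol for all 10 genes, 23 windows in total. The windows of the 4 genes that R1881 raised are printed 5′ to 3′ because these genes moved together, with 1 of the 6 windows of INPP4B, the one at its most upstream start. For comparison, 1 of the 6 windows of PIK3R3, which R1881 lowered, is shown, chosen because it holds a match. Capitals mark AGAACA or its reverse complement TGTTCT, the core of an androgen response element, and GTAAACA or TGTTTAC, a forkhead core. Both strands were searched, and no match of one motif overlapped a match of the other.
IGF1R, chr15:98648289-98648588, plus strand: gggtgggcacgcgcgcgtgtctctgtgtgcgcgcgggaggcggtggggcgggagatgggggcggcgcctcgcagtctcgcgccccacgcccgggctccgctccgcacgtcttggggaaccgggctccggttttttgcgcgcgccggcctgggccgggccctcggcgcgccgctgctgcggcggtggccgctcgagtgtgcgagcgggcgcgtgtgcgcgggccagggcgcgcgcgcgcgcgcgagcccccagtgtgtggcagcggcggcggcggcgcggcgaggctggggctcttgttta
IRS1, chr2:226799771-226800070, minus strand: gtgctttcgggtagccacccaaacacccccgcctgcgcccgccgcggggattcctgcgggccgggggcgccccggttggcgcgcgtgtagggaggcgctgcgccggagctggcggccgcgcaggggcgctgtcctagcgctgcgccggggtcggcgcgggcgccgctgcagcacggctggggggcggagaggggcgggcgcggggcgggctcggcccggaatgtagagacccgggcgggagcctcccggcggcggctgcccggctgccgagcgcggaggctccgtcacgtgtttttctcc
IRS2, chr13:109786534-109786833, minus strand: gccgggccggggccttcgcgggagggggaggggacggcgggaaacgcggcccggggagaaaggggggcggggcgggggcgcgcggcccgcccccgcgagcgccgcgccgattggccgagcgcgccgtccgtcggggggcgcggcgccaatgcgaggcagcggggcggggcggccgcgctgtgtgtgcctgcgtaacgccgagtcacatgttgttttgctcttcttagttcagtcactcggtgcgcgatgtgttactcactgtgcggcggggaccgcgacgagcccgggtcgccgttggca
INPP4B, chr4:142846252-142846551, minus strand: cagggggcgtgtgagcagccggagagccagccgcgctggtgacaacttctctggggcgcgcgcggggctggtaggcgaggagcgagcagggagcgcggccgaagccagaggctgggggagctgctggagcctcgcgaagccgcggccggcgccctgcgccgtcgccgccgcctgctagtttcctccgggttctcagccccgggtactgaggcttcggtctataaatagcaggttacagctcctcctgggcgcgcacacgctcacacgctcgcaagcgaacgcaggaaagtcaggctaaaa
PIK3R3, chr1:46132746-46133045, minus strand: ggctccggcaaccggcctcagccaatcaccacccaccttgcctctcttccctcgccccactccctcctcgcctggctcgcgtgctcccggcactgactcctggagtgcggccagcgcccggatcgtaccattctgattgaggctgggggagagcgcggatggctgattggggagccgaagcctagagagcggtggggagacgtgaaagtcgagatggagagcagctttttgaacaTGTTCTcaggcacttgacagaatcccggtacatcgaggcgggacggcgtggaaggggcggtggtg
None of the windows of IGF1R, IRS1, IRS2 or INPP4B held either motif. AGAACA was found in 2 of the 4 windows of PIK3R1 and 3 of the 6 windows of PIK3R3, which is 5 of 23 windows over the 10 genes, and GTAAACA in 0 of them. Windows of 1 gene can overlap, and the match in the printed PIK3R3 window is also that of the overlapping window chr1:46132580-46132879, so it counts under both. The remaining PIK3R3 window with a match, chr1:46174852-46175151, lies upstream of the PIK3R3 position given above. Over all 35116 RefSeq windows, 14.8% held AGAACA and 3.42% held GTAAACA. The printed windows of IGF1R, IRS1, IRS2 and INPP4B were 79.7%, 79.3%, 75.7% and 68.7% G or C, against a median of 58.7% over all windows. A match describes these letters only, and its absence says nothing of sites outside the window.

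The first comparison asked how the genes respond to androgen, R1881 against vehicle. A gene was called when its false discovery rate (FDR, over all genes tested by edgeR's quasi-likelihood test) was under 0.01 and its fold change over 1.5. Because the 10 genes and the pathway lists were chosen with earlier results known, their counts do not test for an excess. The shares of all genes, here and below, are printed beside them as a description only. At 24 h 4 of the 10 genes were called, all upward, against 19.0% of the 15948 genes tested, and 9 of the 10 passed the FDR limit alone, against 48.4%. At 72 h 4 of the 10 were called, again all upward, against 19.8% of 16074 genes, and 8 passed the FDR limit alone, against 52.2%. The same comparison in the presence of the inhibitor gave 5 called genes at 24 h (4 higher, 1 lower), against 18.9% of all genes, and 9 past the FDR limit alone, against 47.5%. At 72 h it gave 6 called genes (4 higher, 2 lower), against 22.0%, and 9 past the FDR limit alone, against 57.3%. The genes called upward were IGF1R, IRS1, IRS2 and INPP4B in each of these 4 comparisons. The median size of the log2 fold change for R1881 against vehicle was 0.45 over the 10 genes and 0.26 over all genes at 24 h, and 0.49 and 0.26 at 72 h.

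**Figure D1:**
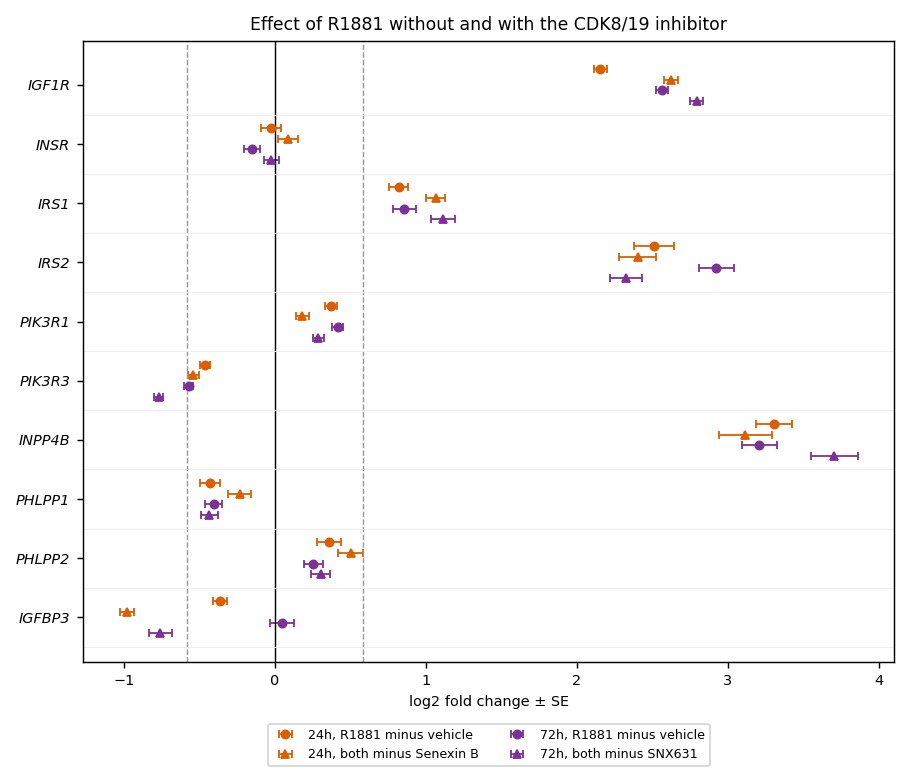
Log2 fold change for R1881 without the inhibitor (circles) and with it (triangles) for the 10 genes, in the 24 h (orange) and 72 h (purple) experiments. Bars are standard errors of the fit (3 libraries a group at 24 h, 4 at 72 h) and dashed lines mark a fold change of 1.5. IGF1R, IRS1, IRS2 and INPP4B lie to the right of the upper line in all 4 comparisons, and IGFBP3 lies left of the lower line only where the inhibitor was present.

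IGF1R, the receptor for IGF1 and IGF2, was the most abundant transcript of the 4 raised genes. At 24 h it measured 90.4, 96.0 and 94.7 CPM in the vehicle libraries and 439, 389 and 429 CPM with R1881. The 72 h libraries measured 62.3, 62.7, 69.9 and 67.2 CPM with vehicle and 362, 406, 387 and 393 CPM with R1881. The R1881 libraries were far above every vehicle library in both experiments, with no overlap. The log2 fold change was 2.16 ± 0.045 (SE, FDR 3.8e-28) at 24 h and 2.56 ± 0.042 (FDR 9.0e-36) at 72 h, that is 4.46-fold and 5.91-fold. Without R1881 the inhibitors lowered the level to 76.8, 71.2 and 72.4 CPM (Senexin B) and to 52.1, 53.5, 58.1 and 53.8 CPM (SNX631). These libraries lay below all vehicle libraries, and the changes of -0.35 ± 0.052 (FDR 2.4e-06) and -0.27 ± 0.054 (FDR 1.1e-04) passed the FDR limit alone. In the presence of R1881 the level was 482, 433 and 445 CPM with Senexin B and 379, 400.4, 383 and 347 CPM with SNX631. Both sets overlapped their R1881 groups, and the changes of 0.11 (FDR 0.026) and -0.04 (FDR 0.38) did not pass. The order of group means at 24 h was R1881 with Senexin B, R1881, vehicle and Senexin B, and at 72 h R1881, R1881 with SNX631, vehicle and SNX631, and in each the first and second did not differ beyond their spread.

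INSR, the insulin receptor, was at 26.5 to 37.2 CPM in all 28 libraries. With vehicle it measured 29.6, 29.7 and 30.4 CPM at 24 h and 34.7, 32.2, 34.4 and 33.5 CPM at 72 h. With R1881 it measured 31.0, 26.5 and 31.2 CPM, and 29.4, 31.2, 30.2 and 30.3 CPM. The 24 h groups overlapped and those at 72 h did not, and neither log2 fold change, -0.02 ± 0.066 (FDR 0.78) and -0.15 ± 0.051 (FDR 0.011), passed the FDR limit. Addition of Senexin B to R1881 gave 34.5, 37.2 and 34.1 CPM, all above the R1881 libraries, a change of 0.25 ± 0.069 (FDR 0.0048) that passed the FDR limit alone. SNX631 with R1881 gave 31.8, 34.5, 32.9 and 30.6 CPM, which overlapped R1881 (0.10 ± 0.051, FDR 0.11). None of the neighbours in the order of group means differed at FDR 0.01 in either experiment.

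IRS1 is an adaptor that links both receptors to PI3K. Its level was 24.5, 22.4 and 22.1 CPM with vehicle and 40.8, 40.3 and 39.0 CPM with R1881 at 24 h. At 72 h it was 14.0, 15.3, 14.6 and 16.7 CPM with vehicle and 25.1, 28.1, 30.5 and 26.0 CPM with R1881. All R1881 libraries were above all vehicle libraries. The log2 fold changes were 0.82 ± 0.060 (FDR 2.1e-13) and 0.86 ± 0.075 (FDR 1.3e-12), and with the inhibitor present 1.06 ± 0.063 and 1.11 ± 0.079. Without R1881, Senexin B gave 22.5, 22.9 and 20.1 CPM, which overlapped vehicle (-0.06 ± 0.066, FDR 0.53). SNX631 gave 10.6, 11.4, 10.7 and 12.9 CPM, below every vehicle library, a change of -0.41 ± 0.089 (FDR 2.8e-04) past the FDR limit alone. With R1881 the level was 45.7, 44.2 and 46.7 CPM with Senexin B, above the R1881 group without overlap, and 23.0, 25.0, 27.3 and 23.0 CPM with SNX631, which overlapped it. Neither of these changes, 0.19 (FDR 0.012) and -0.16 (FDR 0.055), passed the FDR limit. In the order of group means, the pairs that did not differ were R1881 with and without the inhibitor in both experiments, and vehicle and Senexin B at 24 h.

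IRS2, the second adaptor, started from a low level, with 31 to 89 counts per vehicle library at 24 h. It measured 2.91, 2.75 and 2.53 CPM with vehicle and 14.8, 15.5 and 15.1 CPM with R1881 at 24 h. After 72 h the values were 3.74, 2.51, 3.43 and 3.19 CPM with vehicle and 27.6, 23.3, 24.4 and 22.3 CPM with R1881. No library of one group reached the range of the other. The rise was 5.69-fold (log2 2.51 ± 0.13, FDR 4.1e-17) and 7.58-fold (log2 2.92 ± 0.12, FDR 6.2e-23). IRS2 was the gene among the 10 called upward past both limits with an inhibitor alone, which was Senexin B. It gave 4.49, 4.31 and 3.50 CPM, all above vehicle (log2 0.63 ± 0.17, FDR 0.0051). This call was lost without replicate 3 of vehicle (0.54) or without replicate 1 (0.55) or 2 (0.60) of Senexin B. SNX631 gave 4.54, 4.83, 2.87 and 5.78 CPM, of which replicate 3 fell within the vehicle range, and the change of 0.49 ± 0.17 (FDR 0.020) passed neither limit, but passed both without replicate 3 (0.66). Added to R1881, Senexin B gave 23.9, 17.7 and 23.1 CPM, all above R1881 (0.52 ± 0.096, FDR 7.7e-05), a change that passed the FDR limit alone, and both limits without replicate 2 (0.64). SNX631 added to R1881 gave 22.9, 23.0, 23.3 and 21.0 CPM, which overlapped R1881 (-0.11 ± 0.076, FDR 0.27). All neighbours in the order of means differed at 24 h, while at 72 h R1881 did not differ from R1881 with SNX631, nor SNX631 from vehicle.

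PIK3R1 encodes p85α, the regulatory subunit that stabilizes the catalytic subunit and docks it on IRS proteins. It measured 113, 112 and 109 CPM with vehicle and 142, 141 and 148 CPM with R1881 at 24 h. Its 72 h values were 94.5, 99.3, 102 and 99.6 CPM with vehicle and 127, 129, 139 and 132 CPM with R1881. The groups did not overlap, and the log2 fold changes of 0.37 ± 0.041 (FDR 2.0e-09) and 0.42 ± 0.037 (FDR 1.9e-12) passed the FDR limit but stayed under a fold change of 1.5. The inhibitors changed it by -0.10 to 0.09 in log2 terms over the 4 comparisons, none past the FDR limit. Accordingly, R1881 and R1881 with the inhibitor, and the inhibitor and vehicle, did not differ in the order of means in either experiment.

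PIK3R3, which encodes the smaller regulatory subunit p55γ, was lower with R1881 and lower with the inhibitors. It measured 242, 245 and 244 CPM with vehicle and 184, 171 and 176 CPM with R1881 at 24 h, and 245, 245, 247 and 243 CPM and 169, 169, 162 and 158 CPM at 72 h. The R1881 libraries were below every vehicle library, with log2 fold changes of -0.46 ± 0.035 (FDR 3.5e-13) and -0.57 ± 0.028 (FDR 6.7e-20) that passed the FDR limit alone. The latter lies just under the 1.5-fold limit and was called without replicate 1 (-0.59) or 2 (-0.59) of R1881, and with scaling by library totals (-0.67). With Senexin B present R1881 changed it by -0.54 ± 0.038 (FDR 5.7e-14), past the FDR limit alone. With SNX631 present the change was -0.77 ± 0.029 (FDR 6.5e-24), a call. Inhibitor alone gave 180.2, 185 and 180.1 CPM (Senexin B) and 214, 216, 226 and 230.2 CPM (SNX631), again below all vehicle libraries, with changes of -0.43 ± 0.034 (FDR 1.9e-11) and -0.14 ± 0.027 (FDR 5.0e-05). Both agents together gave the lowest levels, 119, 127 and 129 CPM at 24 h and 131, 127, 130.3 and 131 CPM at 72 h. These libraries lay below those of every other group, and the change from vehicle was -0.97 ± 0.036 (FDR 3.5e-21) and -0.91 ± 0.029 (FDR 1.3e-26). R1881 with inhibitor against vehicle called 5 of the 10 genes at 24 h, against 25.5% of all genes, and 6 at 72 h, against 26.7%, and 10 and 9 of the 10 passed the FDR limit alone, against 57.9% and 63.4%. At 24 h R1881 and Senexin B gave like levels of PIK3R3 (-0.04 ± 0.036, FDR 0.38), while at 72 h R1881 was below SNX631 (-0.43 ± 0.029, FDR 7.2e-16). R1881 against the inhibitor passed the FDR limit alone for 7 of the 10 genes at 24 h, against 46.9% of all genes, and for 8 at 72 h, against 52.1%.

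INPP4B, the inositol polyphosphate 4-phosphatase, had the largest log2 fold change for R1881 of the 10 genes and was the gene among them that both inhibitors lowered past both limits. At 24 h it measured 2.62, 2.18 and 2.22 CPM with vehicle and 24.4, 21.3 and 22.3 CPM with R1881. After 72 h the values were 2.08, 2.51, 2.48 and 2.96 CPM with vehicle and 20.8, 24.0, 22.2 and 26.2 CPM with R1881. The R1881 libraries stood far above vehicle, with log2 fold changes of 3.30 ± 0.12 (FDR 1.9e-21) and 3.21 ± 0.12 (FDR 2.7e-24), that is 9.88-fold and 9.23-fold. Added to R1881, Senexin B lowered it to 10.1, 11.3 and 12.3 CPM and SNX631 to 16.1, 14.9, 13.1 and 12.1 CPM. These libraries lay between vehicle and R1881 without touching either, with changes of -1.01 ± 0.097 (FDR 1.1e-09) and -0.74 ± 0.079 (FDR 8.1e-10) from R1881. Without R1881 the level fell to 1.25, 1.74 and 0.913 CPM with Senexin B, on 12 to 21 counts per library, and to 1.13, 1.23, 1.04 and 0.850 CPM with SNX631, on 10 to 16 counts. Both sets were below every vehicle library, and the changes were -0.82 ± 0.23 (FDR 0.0052) and -1.23 ± 0.23 (FDR 4.9e-05). The call at 24 h did not hold without replicate 1 (-0.77) or 3 (-0.88) of vehicle, nor without replicate 1 (-0.80) or 3 (-0.61) of Senexin B. The order of means was R1881, R1881 with inhibitor, vehicle and inhibitor in both experiments, and all neighbours differed.

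PHLPP1 and PHLPP2 encode related phosphatases that remove the hydrophobic-motif phosphate of AKT, and R1881 moved them in opposite directions. PHLPP1 measured 42.3, 37.2 and 40.2 CPM with vehicle and 29.2, 28.7 and 30.8 CPM with R1881 at 24 h, and 42.7, 40.7, 44.7 and 42.8 CPM and 31.1, 35.1, 30.4 and 32.0 CPM at 72 h. The R1881 libraries were below all vehicle libraries (-0.43 ± 0.067, FDR 1.5e-06, and -0.40 ± 0.055, FDR 5.9e-08), past the FDR limit alone. Inhibitor alone gave 34.6, 30.0 and 29.5 CPM (Senexin B) and 33.8, 36.7, 36.1 and 38.4 CPM (SNX631), both below vehicle without overlap (-0.34 ± 0.064, FDR 7.5e-05, and -0.24 ± 0.053, FDR 5.0e-04). With R1881 and inhibitor the levels were 25.3, 25.4 and 29.2 CPM and 27.1, 26.2, 29.4 and 24.6 CPM. Against vehicle these were lower by 1.49-fold (FDR 5.9e-09) at 24 h, just under the fold limit, and 1.59-fold (FDR 1.4e-13) at 72 h, a call. Against R1881 the change was -0.15 ± 0.077 (FDR 0.15) with Senexin B, which did not pass. With SNX631 it was -0.26 ± 0.059 (FDR 3.6e-04), past the FDR limit alone and without overlap. In the order of means, Senexin B and R1881, and R1881 with and without Senexin B, did not differ at 24 h, nor did SNX631 and R1881 at 72 h (FDR 0.0101).

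PHLPP2 was at 20.3, 24.7 and 22.3 CPM with vehicle and 31.9, 27.4 and 27.5 CPM with R1881 at 24 h. At 72 h it was at 22.8, 23.2, 21.8 and 22.3 CPM with vehicle and 26.5, 29.4, 25.8 and 25.6 CPM with R1881. All R1881 libraries were above all vehicle libraries, and the changes of 0.36 ± 0.077 (FDR 1.7e-04) and 0.25 ± 0.061 (FDR 4.6e-04) passed the FDR limit alone. The 4 inhibitor comparisons gave log2 changes from -0.13 to 0.02, none past the FDR limit. In the order of means only the step between the groups with R1881 and those without it passed the FDR limit.

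IGFBP3, the main carrier of IGFs in serum, had the highest level per kilobase of the 10 genes and was the one whose response to R1881 differed with the inhibitor past both limits. At 24 h it measured 882, 936 and 941 CPM with vehicle, 716, 762 and 671 CPM with R1881, 1213, 1304 and 1329 CPM with Senexin B and 690.5, 672 and 586 CPM with both. At 72 h it measured 369, 363, 344 and 357 CPM with vehicle, 382, 365, 362 and 371 CPM with R1881, 612, 551, 512 and 346 CPM with SNX631 and 291, 307, 303 and 294 CPM with both. The Senexin B libraries stood above, and the SNX631 libraries too except replicate 4, which was within the vehicle range. Inhibitor alone raised it by 0.48 ± 0.045 (FDR 5.6e-10) and 0.50 ± 0.075 (FDR 1.4e-06) in log2 terms, past the FDR limit alone. Without replicate 4 of SNX631 the mean of that group was 558 ± 50.6 CPM (SD, n = 3) in place of 505 ± 114 CPM (SD, n = 4), and the change was 0.64 and passed both limits. With R1881 present the sign was the other: -0.14 ± 0.047 (FDR 0.019) for Senexin B, which did not pass, and -0.31 ± 0.078 (FDR 0.0013) for SNX631, past the FDR limit alone. R1881 changed the level by -0.36 ± 0.046 (FDR 4.1e-08) without and -0.98 ± 0.046 (FDR 1.9e-18) with Senexin B, and by 0.05 ± 0.077 (FDR 0.62) without and -0.76 ± 0.076 (FDR 3.3e-11) with SNX631. With scaling by library totals the value without SNX631 was -0.055. In the order of means, R1881 with and without Senexin B did not differ at 24 h (FDR 0.019), nor R1881 and vehicle at 72 h.

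**Figure D2:**
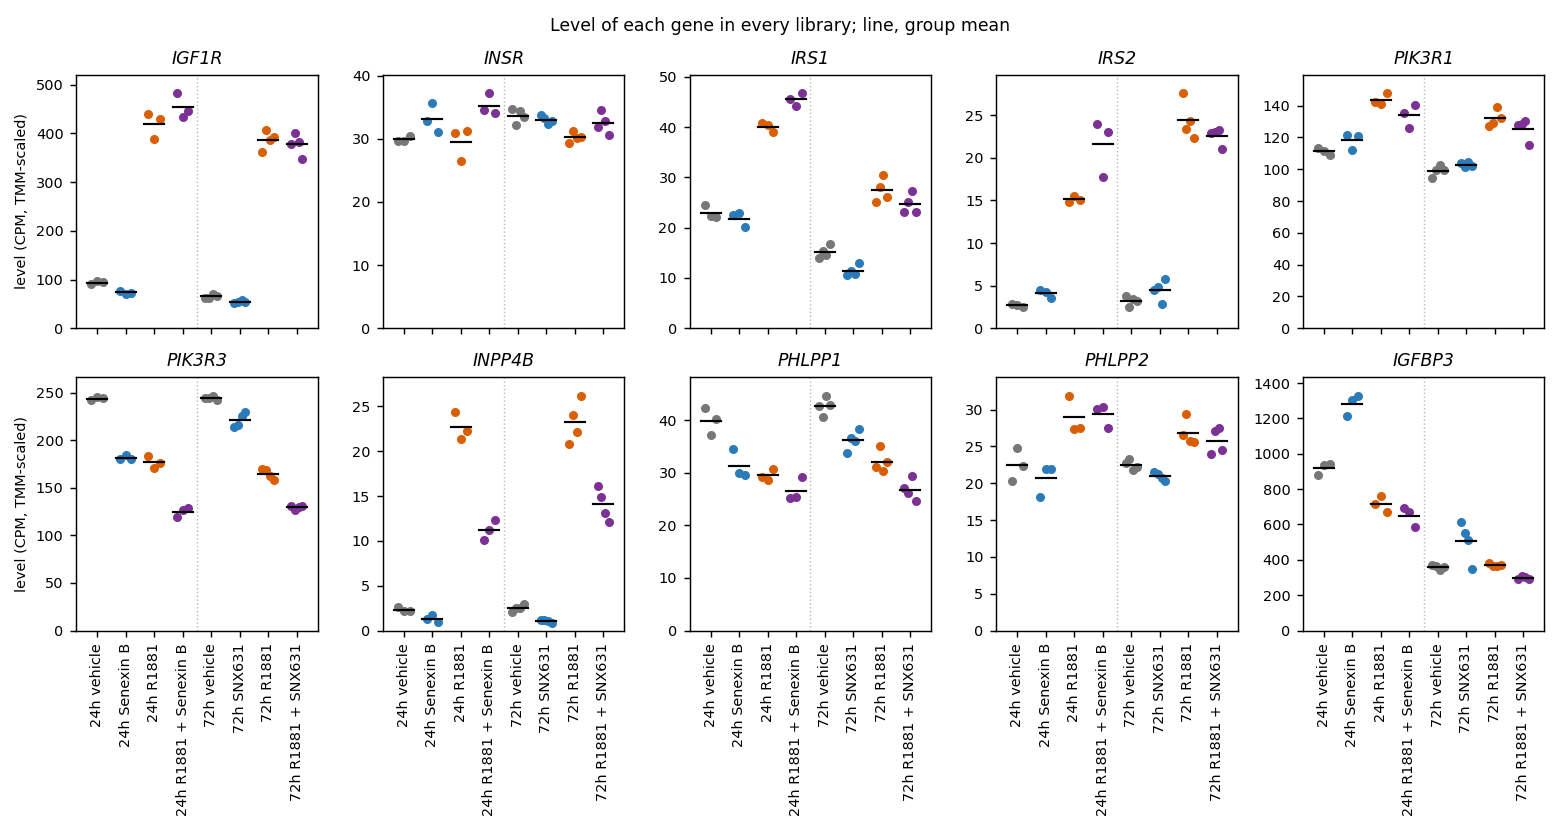
Level in CPM of each of the 10 genes in every library (points) with the group mean (line), 24 h groups left of the dotted line and 72 h groups right of it, each axis linear from 0. Vehicle is grey, inhibitor blue, R1881 orange and both agents purple. For IGF1R, IRS1, IRS2 and INPP4B, the groups with R1881, alone or with the inhibitor, stand above those without it in the same experiment. For IGFBP3 the SNX631 library at 346 CPM is the lowest of its group and lies within the range of the 72 h vehicle libraries.

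The second comparison asked what CDK8/19 inhibition does to these genes with and without androgen. Because the comparisons within an experiment share libraries, their values are given side by side only. Without R1881, 2 of the 10 genes were called with Senexin B (IRS2 higher, INPP4B lower), against 3.79% of all genes, and 1 with SNX631 (INPP4B lower), against 4.77%. The FDR limit alone was passed by 6 of 10 with either inhibitor, against 25.2% and 26.9% of all genes. In the presence of R1881, 1 of 10 was called with Senexin B, against 3.12%, and 1 with SNX631, against 4.12%, and both were INPP4B. Here 4 of 10 passed the FDR limit alone with either inhibitor, against 22.7% and 33.1%. The median size of the log2 change without R1881 was 0.35 for the 10 genes and 0.15 for all genes with Senexin B, and 0.25 and 0.14 with SNX631. With R1881 the same medians were 0.17 and 0.16, and 0.13 and 0.16. Taking 1 library away changed the number called with Senexin B alone to 0 or 1 for 5 of the 6 libraries compared, namely vehicle replicates 1 and 3 and all 3 Senexin B replicates, with 0 without vehicle replicate 3 or Senexin B replicate 1. It raised the number called with SNX631 alone to 2 without replicate 3 or 4 of SNX631.

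**Figure D3:**
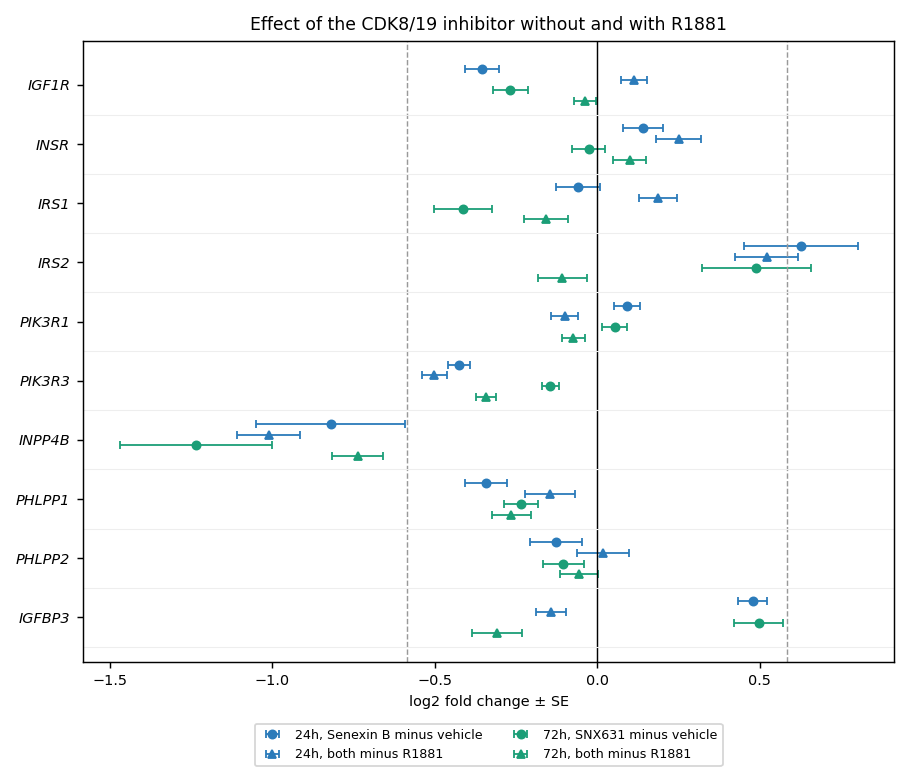
Log2 fold change for the CDK8/19 inhibitor without R1881 (circles) and with it (triangles) for the 10 genes, for Senexin B at 24 h (blue) and SNX631 at 72 h (green). Bars are standard errors of the fit and dashed lines mark a fold change of 1.5. INPP4B lies left of the lower line in all 4 comparisons, and IGFBP3 lies right of 0 without R1881 and left of 0 with it.

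The interaction of R1881 and inhibitor tests directly whether one changes the response to the other. IGFBP3 was the 1 gene of the 10 called in each experiment, against 0.577% of all genes at 24 h and 1.19% at 72 h. Its interaction was -0.62 ± 0.065 (FDR 5.5e-08) at 24 h and -0.81 ± 0.11 (FDR 8.8e-07) at 72 h. The call at 24 h did not hold without replicate 3 of R1881 with Senexin B (-0.55, under the fold limit), and the value at 72 h was -0.95 without replicate 4 of SNX631. IGF1R (0.47 ± 0.066, FDR 1.2e-05) at 24 h and PIK3R3 (-0.20 ± 0.041, FDR 6.0e-04) at 72 h passed the FDR limit alone, so that 2 of 10 genes passed it in each experiment, against 2.09% and 7.09% of all genes. For IGF1R at 72 h (0.23 ± 0.063, FDR 0.012) the sign was the same and the limit was not passed. INPP4B had interactions of -0.19 ± 0.26 (FDR 0.80) and 0.50 ± 0.25 (FDR 0.21), so its decrease with the inhibitor was not shown to differ with and without R1881. IRS2 had -0.10 ± 0.20 (FDR 0.86) and -0.60 ± 0.18 (FDR 0.026), and the latter was called without replicate 3 of SNX631 (-0.76).

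Effects were then compared between the experiments in a fit of all 28 libraries, where a difference may come from time, dose or inhibitor. For R1881 against vehicle, 0 of the 10 genes were called, against 1.88% of 16672 genes, and 2 passed the FDR limit alone, against 7.54%: IGF1R and IGFBP3. The rise of IGF1R was larger at 72 h by 0.41 ± 0.067 (FDR 1.1e-05). For IGFBP3 the difference was 0.41 ± 0.11 (FDR 0.0080), between a decrease at 24 h and no change past the test at 72 h. For the inhibitor without R1881, 0 were called, against 0.474%, and 1 passed the FDR limit alone, against 2.20%. This was PIK3R3, whose decrease was smaller with SNX631 for 72 h than with Senexin B for 24 h by 0.28 ± 0.042 (FDR 1.2e-05). For the inhibitor with R1881, 1 was called, against 0.210%, and the same 1 passed the FDR limit alone, against 2.72%. It was IRS2, with a difference of -0.62 ± 0.13 (FDR 0.0016): Senexin B raised it over R1881 at the FDR limit alone, and the change with SNX631 did not pass. This call did not hold without replicate 1 (-0.54) or 3 (-0.57) of R1881 with Senexin B, or without replicate 1 of R1881 at 72 h (-0.56). The difference for INPP4B was -0.41 ± 0.35 (FDR 0.61) without R1881 and 0.28 ± 0.13 (FDR 0.21) with it, and these wide errors do not show that the inhibitors acted alike.

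Other genes of the pathway, 97 in 6 lists by role, were counted in the same fits, and 78 of them were expressed enough to be tested within each experiment. R1881 against vehicle called 6 higher and 13 lower at 24 h, and 6 higher and 17 lower at 72 h. The share called was 24.4% at 24 h, beside 19.0% of all genes, and 29.5% at 72 h, beside 19.8%. The median log2 change was -0.16 and -0.08 over these genes and -0.02 and -0.01 over all genes. By list at 72 h, FOXO factors and their target genes had 0 higher and 7 lower of 16 tested, receptors and adaptors 0 and 5 of 13, PI3K subunits and inhibitors 1 and 2 of 11, lipid phosphatases and AKT brakes 1 and 2 of 13, AKT, mTOR and SGK kinases 3 and 0 of 21, and ligands and binding proteins 1 and 1 of 4. At 24 h these counts were 0 and 6, 0 and 3, 1 and 1, 1 and 2, 3 and 0, and 1 and 1. The list named for AKT, mTOR and SGK kinases also holds genes that are not kinases, such as TSC1, TSC2 and EIF4EBP1. That of receptors and adaptors also holds genes that restrain signalling, such as GRB10, GRB14, SOCS1, SOCS3 and PTPN1. The counts by list therefore give no direction of signalling.

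The genes called upward by R1881 in both experiments were 4. For all genes, the share with such a joint call was not computed. The shares printed for single experiments do not stand in for it. Joint counts, here and below, therefore cannot be judged against a background. FKBP5, a co-chaperone that can hold AKT near the phosphatase PHLPP, changed by 3.65 ± 0.048 and 3.86 ± 0.030 in log2 terms. PIK3AP1, an adaptor that recruits PI3K, changed by 2.56 ± 0.11 and 3.04 ± 0.097. The ligand IGF1 (1.81 ± 0.30 and 1.28 ± 0.19), at 2.57 and 4.94 CPM with R1881, and the AKT-related kinase SGK3 (0.91 ± 0.071 and 1.21 ± 0.056) were the others. Of the 11 genes called downward in both, the adaptor GRB10, which binds and restrains the insulin and IGF1 receptors, had the largest change (-1.94 ± 0.037 and -2.21 ± 0.021), from 1323 and 1394 CPM with vehicle to 344 and 300.3 CPM. It was followed by SESN3, a stress-induced inhibitor of mTORC1 (-1.27 ± 0.055 and -1.32 ± 0.030), and TRIB1, a pseudokinase (-0.99 ± 0.064 and -1.15 ± 0.057). GAB2, an adaptor (-0.90 ± 0.24 and -0.87 ± 0.19), FOXO6 (-0.78 ± 0.22 and -0.99 ± 0.20) and CCNG2, a cyclin (-0.88 ± 0.048 and -0.88 ± 0.041), had smaller changes. With the inhibitor present, R1881 called 8 higher and 15 lower at 24 h (29.5%, beside 18.9% of all genes) and 6 higher and 15 lower at 72 h (26.9%, beside 22.0%), of which 6 and 14 were called in both experiments. Beside FKBP5, PIK3AP1, IGF1 and SGK3, those higher were the kinase SGK2 (1.04 ± 0.34 and 1.61 ± 0.30), and EIF4EBP1, the translation repressor 4E-BP1 (0.71 ± 0.066 and 0.76 ± 0.038). Beside GRB10, SESN3 and TRIB1, the largest decreases were those of the binding protein IGFBP5 (-2.43 ± 0.54 and -2.95 ± 0.26), PIK3IP1, a membrane inhibitor of PI3K (-1.13 ± 0.059 and -1.30 ± 0.066), and the receptor-binding adaptor GRB14 (-1.11 ± 0.12 and -1.32 ± 0.14).

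**Figure D4:**
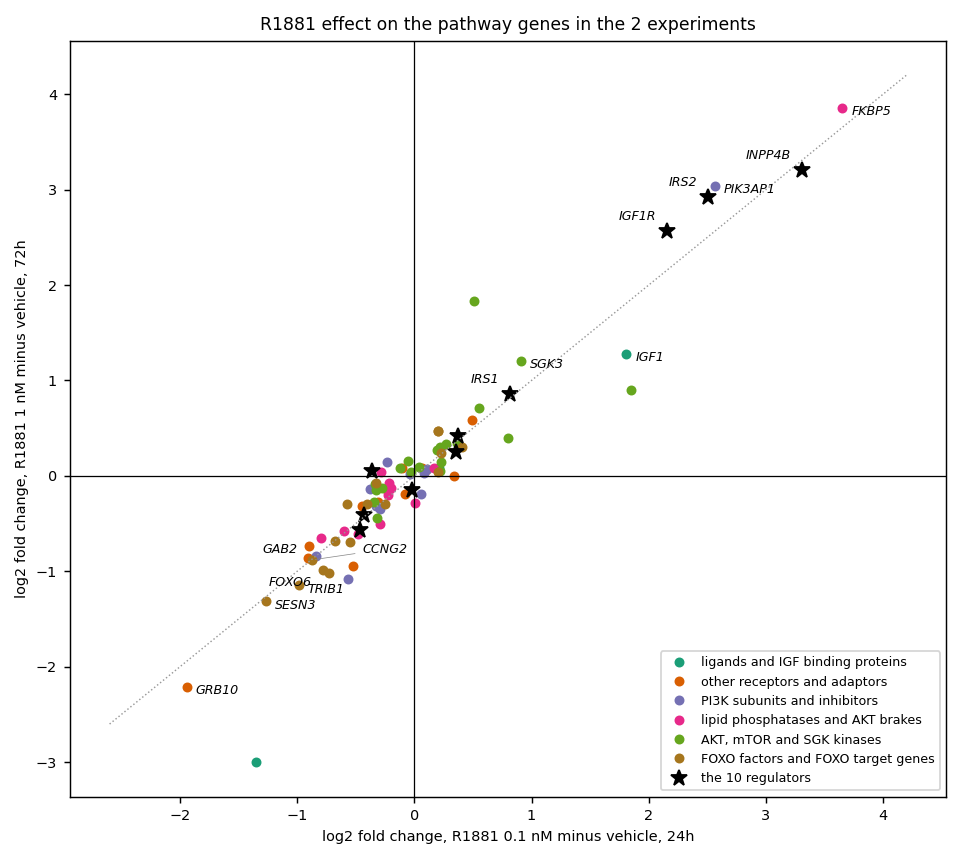
Log2 fold change for R1881 against vehicle at 24 h (horizontal) and 72 h (vertical) for the pathway genes tested in both experiments (circles coloured by list) and the 10 regulators (stars), with the line of equal change dotted. The stars of IGF1R, IRS2 and INPP4B lie near FKBP5 and PIK3AP1 at the upper right, and GRB10 and SESN3 lie at the lower left.

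Inhibitor alone called 2 of the 78 pathway genes higher and 2 lower with Senexin B (5.13%, beside 3.79% of all genes) and 1 higher and 2 lower with SNX631 (3.85%, beside 4.77%). TXNIP, an arrestin-like protein that restrains glucose uptake, was lowered by both, by -0.81 ± 0.045 and -0.83 ± 0.032. With R1881, 1 was called higher and 4 lower with Senexin B (6.41%, beside 3.12% of all genes), and 0 higher and 7 lower with SNX631 (8.97%, beside 4.12%). Those lowered by both were SGK1, an AKT-related kinase (-0.73 ± 0.20 and -0.95 ± 0.15), TXNIP (-0.82 ± 0.053 and -0.63 ± 0.037) and PIK3AP1 (-0.68 ± 0.094 and -0.75 ± 0.068). For the interaction 0 pathway genes were called at 24 h and 1 at 72 h.

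Of the kinases that PI3K lipids bring to the membrane, AKT1 was higher with R1881 by 0.20 ± 0.035 (FDR 1.2e-05) and 0.27 ± 0.029 (FDR 3.2e-10), and AKT2 by 0.22 ± 0.033 (FDR 7.8e-07) and 0.30 ± 0.027 (FDR 2.7e-12), past the FDR limit alone.

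For each of the 10 genes, the 3 genes with the most similar pattern were found among 14904 genes with a mean of at least 1 CPM, by Pearson correlation of log2 CPM over the 28 libraries after the mean of each experiment was subtracted. These correlations describe libraries that share treatments, and with an R1881 effect of this size many genes correlate closely. IGF1R was closest to SLC41A1 (r = 0.998), ABHD2 (0.998) and a gene without a symbol, ENSG00000276418 (0.998). INPP4B was closest to STAT3 (0.995), CDC14B (0.991) and PRRG4 (0.991), IRS1 to SP9 (0.976), KCND2 (0.973) and SUN2 (0.971), and IRS2 to NCAPD3, ABCC4 (both 0.987) and IMPDH1 (0.986). PIK3R1 was closest to EPHA7 (0.966), MAPK6 (0.965) and SPECC1L-ADORA2A (0.964). PIK3R3 was closest to the read-through gene P3R3URF-PIK3R3 (0.990), with which it shares sequence, followed by RAB30 (0.976) and SMARCE1 (0.974). PHLPP1 was closest to PROM2 (0.947), MSI2 (0.945) and ITGA5 (0.938), and PHLPP2 to ACADM (0.924), TNFSF4 (0.917) and ATP6V1D (0.913). IGFBP3 was less closely followed, by COBLL1 (0.895), CWC15 (0.892) and RBL2 (0.891), and INSR least, by PDZD8 (0.798), RAPGEF1 (0.786) and FBXO41 (0.775). Among the 10 genes themselves the closest pairs were IGF1R with INPP4B and with IRS1 (both 0.967), and the most opposed pair was IRS2 with PIK3R3 (-0.893).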

How the data were processed

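RNA of LNCaP cells was sequenced in 28 libraries, 3 per group at 24 h and 4 per group at 72 h. The deposited table holds expected counts per gene, made by the authors from aligned reads, and 16.9% of its values above 0 have a fractional part. The submitters' processing notes list FastQC, cutadapt 2.8, STAR 2.7.2b, featureCounts, Subread 2.0.3 and the builds GRCh38.p13 and GRCm39. The annotation version and the strand setting are not given in the sources used here. Counts were rounded to whole numbers, and 2 rows that name no human gene, with 0 counts, were left out. All columns belonged to a labelled sample.

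Groups were taken from the sample labels. Each experiment was fitted alone with edgeR 4.0.16 in R 4.3.3 (filterByExpr at its settings of 10 counts and 15 counts in total, TMM scaling, quasi-likelihood F-test), and all 28 libraries were fitted together for differences between experiments. P-values were adjusted by the Benjamini-Hochberg method over all genes tested. The limits, an FDR of 0.01 and a fold change of 1.5, are those of the study. Standard errors were derived from the fit. The typical biological coefficient of variation was 2.72% at 24 h and 2.38% at 72 h, and library totals of 9846595 to 33809419 limit precision for low genes such as INPP4B without R1881. Log2 CPM for correlations used a prior count of 2. Same-numbered libraries did not deviate together (correlations of -0.03 to 0.07 over 18 pairs at 24 h and -0.07 to 0.07 over 24 pairs at 72 h), so the main fit holds no replicate term.

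The members and gene lists were chosen with earlier results of these data known. The named genes were the 10 members, pathway genes whose call had 1 direction in both experiments (at most the 6 largest in each direction), AKT1, AKT2, KLK3 and the 3 genes most like each member, and some genes of this rule are not reported here. Alternatives were other scalings, DESeq2 1.42.0, no filter, an FDR limit of 0.05 with no fold limit, a replicate block, 1 joint fit and leaving out each library. The fits were tested on simulated data with known changes, set for R1881 only and in genes with higher counts. That test does not show how well changes in low-count genes, inhibitor effects or interactions are recovered. Promoter windows were read from a RefSeq table with Python 3.11.15, and figures were drawn with matplotlib 3.10.9.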

Additional observations from a re-analysis of the deposited data

Results flagged for a closer look

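In each 72 h group of 4 libraries, the highest and lowest values of the 10 genes were compared with the rest, 40 groups in total, and 2 had a library standing apart. Chance flags about 1 in 20 such groups. Both involved replicate 4 of R1881 with SNX631. IRS2 was at 21.0 CPM there, the lowest of its group and 0.8294 of the group's range away from the next library at 22.9 CPM. PIK3R1 was at 115 CPM there, the lowest of its group and 0.839 of the range away from the next library at 128 CPM. IGFBP3 in replicate 4 of SNX631 alone was not flagged by this rule.

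The effect of the inhibitor on IRS2 in the presence of R1881 differed between the experiments by -0.62 (SNX631 at 72 h minus Senexin B at 24 h) in the fit of all libraries. The experiments differ in time, R1881 dose and inhibitor, which cannot be told apart.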

How the results depend on the processing

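Scaling by DESeq2 size factors, the fit of all 28 libraries and the replicate block kept the direction and the call of every effect they were applied to. These were 130 effects for the size factors and 100 for each of the others. The counts of called genes, 26 for the size factors and 20 for each of the others, were equal or within a factor of 1.5. With the replicate block R1881 against vehicle called 4 of the 10 genes in each experiment. Scaling by library totals moved the median of all genes for R1881 by -0.10 at 72 h without and -0.11 with SNX631. It took PIK3R3 past the fold limit (-0.67 for R1881 at 72 h, -0.61 for R1881 with Senexin B present) and turned the sign of PHLPP2 for Senexin B with R1881 (-0.018) and of IGFBP3 for R1881 at 72 h (-0.055). Without the filter, INSR for R1881 with SNX631 present was 0.0047. None of these sign changes concerned a called effect.

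With an FDR limit of 0.05 and no fold limit, the numbers of the 10 genes and of the pathway genes called at 24 h were 9 and 63 (R1881), 9 and 54 (R1881 with inhibitor present), 6 and 35 (inhibitor), 7 and 36 (inhibitor with R1881) and 2 and 4 (interaction). At 72 h they were 9 and 58, 9 and 63, 7 and 37, 4 and 43, and 4 and 22. Between experiments they were 2 and 16 (R1881), 1 and 4 (inhibitor without R1881) and 3 and 7 (inhibitor with R1881). This setting changes both limits at once. The share of all genes that it calls was not computed, so these numbers cannot be judged against a background. At the FDR limit of 0.01 with no fold limit, the inhibitor with R1881 at 24 h called 4 and 28, beside 22.7% of all genes. The 72 h interaction called 2 and 15, beside 7.09%. The DESeq2 Wald test called 1 pathway gene in place of 3 for SNX631 alone, 0 in place of 1 for the 72 h interaction and 0 in place of 1 for the inhibitor with R1881 between experiments, and the cause was not tested.

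Each library was left out in turn. Of 2240 refits of member effects, 24 had the other sign, in 13 effects whose size was at most 0.19, 11 lost a call and 6 gained one. Numbers of the 10 genes called were 0 to 2 for Senexin B alone, 1 to 2 for SNX631 alone, 1 to 2 for Senexin B with R1881, 0 to 1 and 1 to 2 for the interactions at 24 h and 72 h, and 0 to 1 for the inhibitor with R1881 between experiments. Those of pathway genes were 3 to 7 for Senexin B with R1881 and 0 to 1 for the inhibitor with R1881 between experiments. Other counts moved within a factor of 1.5. R1881 at 72 h called 4 to 5 of the 10 genes. Pathway genes called were 18 to 21 and 23 to 26 for R1881 at 24 h and 72 h. With the inhibitor present they were 19 to 22 (23 with all libraries) and 21 to 23. Senexin B alone called 3 to 6, SNX631 alone 2 to 3, and SNX631 with R1881 6 to 8. The effects that took the other sign ranged as follows. At 24 h the INPP4B interaction was -0.40 to 0.039, the IRS2 interaction -0.22 to 0.0086, INSR for R1881 -0.057 to 0.059, IRS1 for Senexin B -0.098 to 0.0037 and PHLPP2 for Senexin B with R1881 -0.029 to 0.084. At 72 h INSR for R1881 with SNX631 present was -0.056 to 0.0036 and the PHLPP1 interaction -0.080 to 0.021. Between experiments the R1881 effect was -0.019 to 0.085 for IRS1 and -0.024 to 0.062 for PHLPP1, the inhibitor effect without R1881 was -0.075 to 0.17 for IGFBP3, -0.26 to 0.043 for IRS2 and -0.076 to 0.072 for PHLPP2, and that with R1881 was -0.0041 to 0.076 for PIK3R1.

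Depth limited INPP4B and IRS2 without R1881 most, and their calls for Senexin B alone rest on few counts. Groups of 3 or 4 libraries not stated to be separate cultures, a fold limit that several genes lie close to, and mRNA levels without protein or phosphorylation bound what these comparisons show.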
